A study of Sus scrofa and Bos taurus with 31 samples.

Results

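The genes described here are 6 genes by which white fat cells store lipid and signal to the rest of the body, ADIPOQ, PLIN1, LEP, CIDEC, FABP4 and LPL, chosen by name from the 20661 protein-coding genes of the pig annotation. Each was examined together with 10 kb on either side of it in the open chromatin of 8 pig tissues. The assay was ATAC-seq, which uses a transposase to insert sequencing adapters where DNA is free of nucleosomes, on cryopreserved nuclei of subcutaneous adipose, liver, lung, spleen, skeletal muscle and, from the brain, cerebellum, hypothalamus and cerebral cortex. Every tissue came from the same 2 pigs, P348 and P350, castrated male Yorkshire littermates of 6 months of age, so all groups share breed, sex and age. The 16 libraries each have a list of peaks, the stretches in which reads are denser than in their surroundings. Read counts are not part of these lists, and sequencing depth was not used here. A list held 99960 to 217308 peaks covering 64.1 to 155.6 Mb. The adipose lists held 163921 (P348) and 115901 (P350) peaks over 125.1 and 82.1 Mb.

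White adipocytes keep triglyceride in a single large droplet and release hormones in proportion to, or against, the size of that store. LPL is the lipase that frees fatty acids from circulating lipoproteins at the vessel wall, and FABP4 carries fatty acids inside the cell. PLIN1 coats the droplet and guards it from lipases, and CIDEC helps droplets fuse. LEP encodes leptin, which signals stored fat to the hypothalamus, and ADIPOQ encodes adiponectin, a hormone that raises insulin sensitivity. LPL is also made by muscle, and FABP4 by macrophages and capillary endothelium.

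All coordinates refer to the Sscrofa11.1 assembly and its RefSeq annotation. ADIPOQ lies at chr13:124633906-124646237 (plus strand), with a gene model marked as incomplete at its 3′ end. PLIN1 lies at chr7:55237517-55250797, LEP at chr18:20106867-20124071 and CIDEC at chr13:66141836-66149801, all on the minus strand. FABP4 lies at chr4:55096400-55101209 and LPL at chr14:4104761-4134964, both on the plus strand. ADIPOQ, PLIN1 and FABP4 have 1 annotated transcription start site (TSS), LPL has 2, and LEP and CIDEC have 6 each. The CIDEC window also holds the TSSs of JAGN1, RPUSD3 and the non-coding LOC106505669, the PLIN1 window that of the non-coding LOC106510160, and the LPL window the pseudogene LOC100524905. No base of the 6 windows is unknown in the assembly, so no gap hides a peak.

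Open chromatin was measured in 2 ways. The first was the number of bases of a window that lie in peaks, divided by all peak bases of the library and given per Mb, which allows for lists of different length. The second was whether a peak lay within 2 kb of a TSS of the gene, here called a promoter peak, with its fold enrichment over the local background. In bulk tissue a site open in few nuclei and a site weakly open in all of them cannot be told apart. Sequences were searched on both strands for the TATA box (TATAAA), the CCAAT box (CCAAT), the GC box (GGGCGG), the C/EBP core (TTGCNNAA), the nuclear receptor half-site (AGGTCA) and its direct repeat with a spacer of a single base, which can overlap each other, the MEF2 core (CTANNNNTAG) and the CTCF core (CCANNAGNNGGC). A match is a description of the letters and not a site of binding. Positions are counted in bases from the annotated 5′ end of the gene, which is position 0, with negative positions upstream.

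Over the whole windows the 6 genes were not largest in adipose. Both adipose libraries lay above the 14 others in 0 of the 6 genes, where 2.56% of all tested genes had such a value. The tissue with the highest mean was spleen for ADIPOQ, PLIN1, CIDEC and FABP4, liver for LEP and skeletal muscle for LPL, and adipose ranked 2 to 4 of 8 in each gene. High spleen values were common, with 2742 of 19625 genes called higher in spleen than in the mean of the other tissues, against 473 in adipose. The order also depends on the division by all peak bases. In undivided bases lung exceeded spleen in each pig for ADIPOQ, PLIN1 and CIDEC, but not for FABP4. Against the mean of the 7 other tissues all 6 differences of adipose were above 0 on the log2 scale, as were those of 12324 of 19605 genes. For adipose 1 of 6, that of FABP4, passed an adjusted p of 0.05 (limma with Benjamini-Hochberg adjustment over 19625 genes, as for every adjusted p here), where 2.41% of genes were called higher and 1.08% lower. The same test called FABP4 (1.82, adjusted p = 0.000753), ADIPOQ (1.13, 0.0123) and CIDEC (0.94, 0.0125) higher in spleen, but not PLIN1, LEP or LPL. In skeletal muscle it called LPL alone of the 6 higher (1.45, adjusted p = 0.000614), among 5873 of 19625 genes. The median difference of adipose was 0.43 over the 6 genes and 0.15 over all tested genes, and without division by all peak bases it was 0.55 and 0.25, so that relative to all genes the 6 stood 0.28 and 0.30 higher. Values below 5 peak bases per Mb are damped by the pseudocount of 5 used for these differences. Promoters gave another picture, with 4 of 6 genes (70.7% of all genes) carrying a promoter peak in both adipose libraries and 1 of them, ADIPOQ, in no other library (0.106% of all genes, 22 of 20661).

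**Figure D1:**
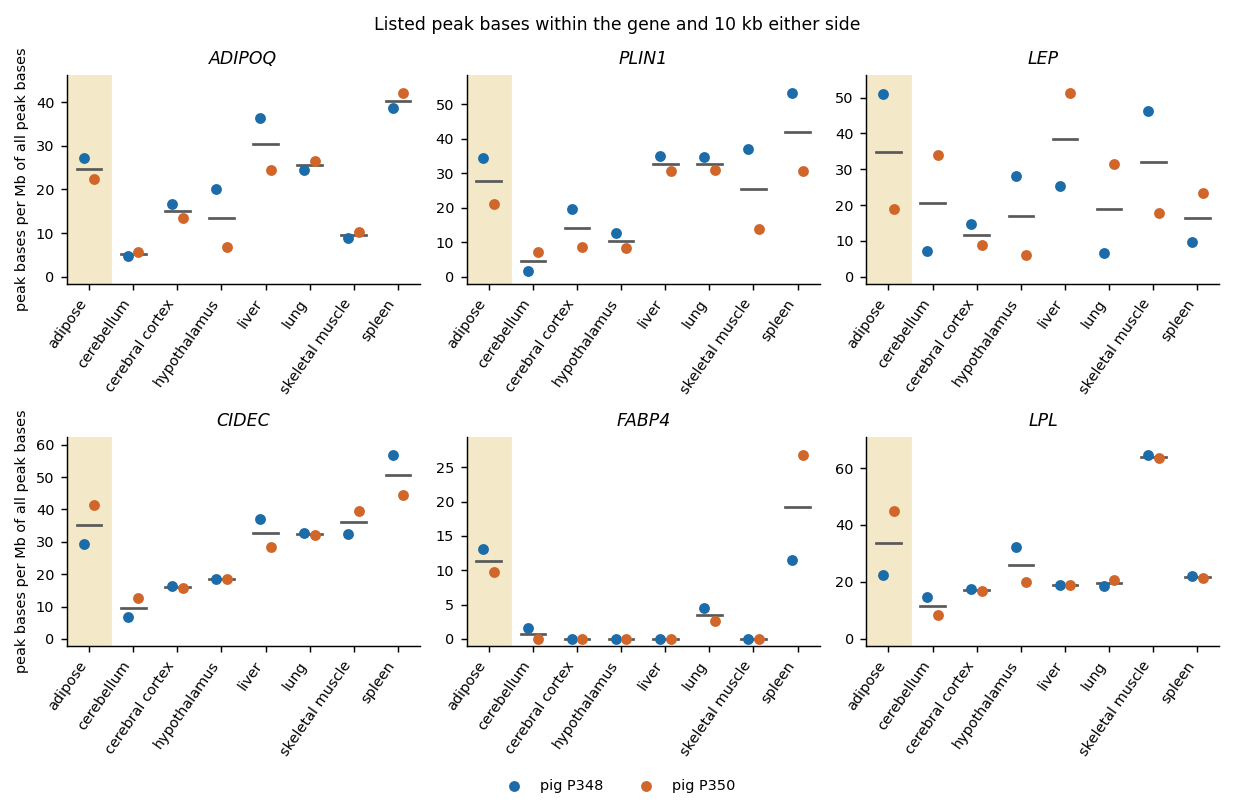
Peak bases per Mb of all peak bases in each gene with 10 kb either side (vertical axis, scaled per gene), in 8 tissues (horizontal axis), with a point for each pig, a bar at the mean of the 2 and adipose shaded. Adipose is the highest group in no gene, spleen is highest in ADIPOQ, PLIN1, CIDEC and FABP4, and the 2 skeletal muscle points of LPL, at 64.5 and 63.4, stand above all others.

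ADIPOQ was the gene with a promoter peak in adipose alone. A peak covered the annotated 5′ end in both adipose libraries, from position -247 to 1169 in P348 at a fold enrichment of 3.15 and from -1138 to 44 in P350 at a fold of 3.12, and none of the 14 other libraries listed a peak within 2 kb. That limit matters, since a region from -3233 to -2089, listed in 5 of the other libraries, ended just beyond it. Wider limits for promoter peaks were not tried. In the promoter the adipose libraries had 11.3 and 14.4 peak bases per Mb against 0 in every other library (exact two-sided permutation test over 16 libraries, p = 0.00833, the smallest this test allows, and p = 0.0156, also the smallest, when the adipose label was permuted within each pig). The test takes libraries and not tissues as units, although the 2 libraries of a tissue are not independent of it. Whole tissues were not permuted. The −log10 q-values of the 2 peaks were 4.25 and 2.27. At a −log10 q-value of at least 4 only the P348 peak was left, and none of the 6 genes then had a promoter peak in both adipose libraries and nowhere else. The stretch shared by the 2 adipose peaks reaches into the first, untranslated exon, and its 247 bases before the 5′ end (chr13:124633659-124633905, plus strand) are shown because they are the only promoter sequence of the 6 genes open in adipose alone, with a match to the CCAAT box in capitals.
ADIPOQ promoter, adipose only: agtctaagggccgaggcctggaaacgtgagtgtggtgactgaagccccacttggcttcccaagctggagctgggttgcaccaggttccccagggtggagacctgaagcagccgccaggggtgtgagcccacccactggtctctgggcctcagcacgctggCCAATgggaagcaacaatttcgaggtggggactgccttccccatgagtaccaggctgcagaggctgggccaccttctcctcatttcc
Its GC content was 61.9%. In the 250 bases before the start the GC content was 62.0% for ADIPOQ, against a median of 57.2% over all genes, of 61.6% over those with a promoter peak in all 16 libraries and of 46.6% over the 22 genes with a promoter peak in adipose alone. The ratio of CG pairs found to those expected from the G and C content went the other way. It was 0.21 for ADIPOQ, against medians of 0.60, 0.75 and 0.30 over the same 3 groups of genes.

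Every other adipose peak of the ADIPOQ window lay in a region that was also listed in another tissue. An intronic site at positions 4313 to 4871 was listed in all 16 libraries, at folds of 5.07 (P348) and 5.09 (P350) in adipose and of 4.95 to 13.8, with a median of 9.53, in the other 14, so that adipose and skeletal muscle were at the low end. The 225 bases common to all 16 peaks (chr13:124638485-124638709, plus strand) are shown as the contrast to the promoter, with the matches in capitals, TTTATA being the TATA box on the reverse strand and the longer run the core of the CTCF site.
ADIPOQ intron, all 16 libraries: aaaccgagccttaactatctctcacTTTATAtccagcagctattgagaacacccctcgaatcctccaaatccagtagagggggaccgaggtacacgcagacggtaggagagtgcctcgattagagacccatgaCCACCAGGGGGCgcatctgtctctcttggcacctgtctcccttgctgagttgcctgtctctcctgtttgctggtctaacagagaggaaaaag
CTCF is the factor that anchors chromatin loops, and the core searched for, CCANNAGNNGGC, was found in 1.64% of windows of the same length at the centres of all merged regions. A site at positions -12494 to -9002 was listed in 15 libraries, including both of adipose at folds of 2.71 and 2.84. Sites at -3233 to -2089 and at 17400 to 17728 were listed in 5 and 4 libraries and in neither adipose library.

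Over the whole ADIPOQ window the adipose libraries had 27.1 (P348) and 22.3 (P350) peak bases per Mb, against 4.77 to 42.1 with a median of 18.4 in the 14 others. Spleen stood highest at 40.3 ± 2.50 (mean ± SD, n = 2 pigs, as for all tissue means here), then liver at 30.5 ± 8.44, lung at 25.5 ± 1.53 and adipose at 24.7 ± 3.40. Liver, lung and adipose overlapped, while spleen lay above all of them and cerebral cortex, at 15.1 ± 2.26, below adipose. The difference of adipose from the mean of the other tissues was 0.43 ± 0.26 (log2 ± SE, adjusted p = 0.349). With 2 kb on either side in place of 10 kb it was 1.16 with an adjusted p of 0.00983, and both adipose libraries then lay above the other 14, as in 486 of 18988 genes.

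LEP, the other hormone gene, had a promoter peak in 14 of 16 libraries, all but cerebellum of P348 and skeletal muscle of P350. The folds were low everywhere, 2.59 and 2.92 in adipose and 2.46 to 3.52 in the others. Their extent differed more. Within 2 kb of its TSSs, which together span 8772 bp, LEP had 20.6 (P348) and 18.8 (P350) peak bases per Mb in adipose and 0 to 16.9, with a median of 6.30, in the others, so both adipose libraries were above all 14 (exact two-sided permutation p = 0.00833, and 0.0156 within pigs, the smallest possible values). Together with ADIPOQ this made 2 of the 6 genes whose promoter peak bases were highest in both adipose libraries, a pattern that 1.13% of all genes had. Of the 30 values tested this way, 5 parts in each of 6 genes with 2 parts empty in every library, these 2 had a p below 0.05 before any adjustment. Here too the test takes libraries and not tissues as units. At a −log10 q-value of at least 2 the LEP promoter peak was left in 6 libraries and in 1 of the 2 adipose libraries.

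The rest of the LEP window differed widely between the adipose libraries of the 2 pigs. The whole window held 51.0 peak bases per Mb in adipose of P348 and 18.8 in that of P350, and 6.02 to 51.3 with a median of 20.6 in the others. Liver (38.3 ± 18.4), adipose (34.9 ± 22.8) and skeletal muscle (32.1 ± 20.1) had the highest means, and no neighbouring pair in the order of the 8 tissues was free of overlap. In adipose of P350 all 1546 peak bases of the window lay in the promoter, while P348 added peaks in an intron, upstream and downstream. The difference was 0.63 ± 0.56 (adjusted p = 0.533), the largest error among the 6 genes, and it was 0.015 without adipose of P348 and 1.25 without adipose of P350. It was 1.77 (adjusted p = 0.0442) with all lists cut to the length of the shortest and -0.39 (adjusted p = 0.548) at a −log10 q-value of at least 4.

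**Figure D2:**
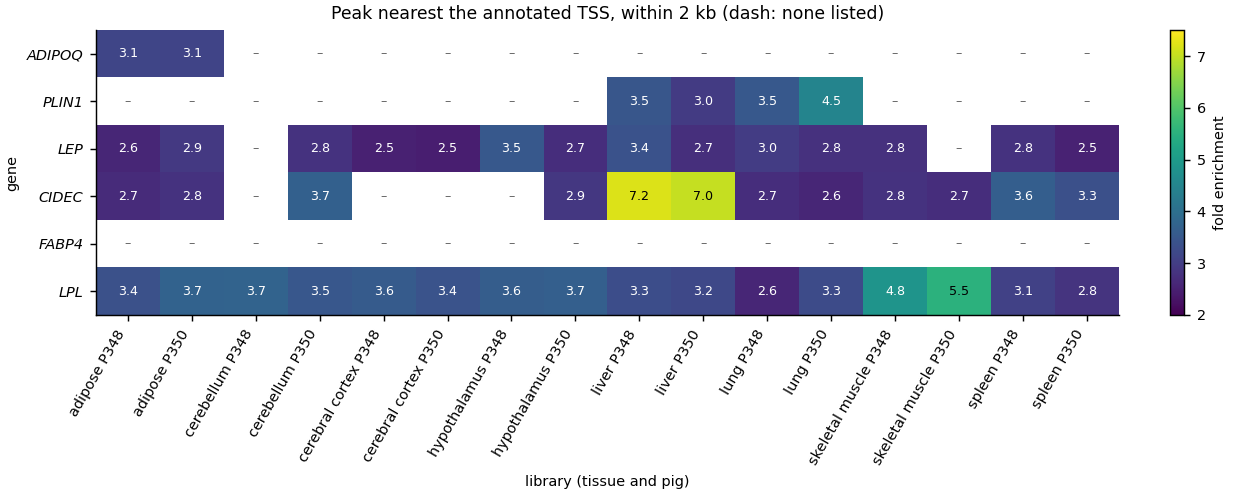
Fold enrichment (colour and number) of the peak nearest the TSS within 2 kb, for the 6 genes (rows) in the 16 libraries (columns), with a dash where no peak is listed. ADIPOQ has a peak in the 2 adipose libraries alone, FABP4 in none of the 16, LPL in all 16, and the highest fold is 7.21, for CIDEC in liver of P348.

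PLIN1, the coat protein of the droplet, had no promoter peak in adipose. Peaks within 2 kb of its start were listed in liver and lung of both pigs, at folds of 2.96 to 4.48, and all 4 began at position 1399 or later. No library listed one within 1 kb. The 2 adipose libraries instead had peaks at the 3′ end of the gene, in a region from 11007 to 13958 that 15 libraries shared, where the strongest peak of a library had a fold of 2.14 (P348) and 2.44 (P350) in adipose and of 3.03 to 5.92 in the 13 others. Weaker peaks of liver of P350 (2.37) and skeletal muscle of P348 (2.16) in the same region were as low as those of adipose. Beyond the 3′ end, a region from 14800 to 15613 was listed in the 2 adipose libraries and nowhere else, at folds of 2.55 and 2.78. This was the only region of the 51 merged regions in the 6 windows, apart from the ADIPOQ promoter, with peaks in both adipose libraries alone, and 0.376% of all merged regions had that pattern. The 200 bases that the 2 peaks share (chr7:55235576-55235775, written along the minus strand) are shown for that reason, and none of the motifs searched is in them.
PLIN1 downstream, adipose only: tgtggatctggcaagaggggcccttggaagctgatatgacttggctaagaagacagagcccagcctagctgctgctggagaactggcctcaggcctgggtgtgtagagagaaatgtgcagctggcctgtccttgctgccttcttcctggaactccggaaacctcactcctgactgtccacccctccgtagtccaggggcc
A region upstream of PLIN1, from -3139 to -2723, was strongest in skeletal muscle, with folds of 9.78 (P348) and 6.33 (P350), against 2.92 in adipose of P348, the only adipose library with a peak there.

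The PLIN1 window held 34.5 (P348) and 21.2 (P350) peak bases per Mb in adipose and 1.70 to 53.3 with a median of 25.1 in the others. Spleen (42.0 ± 16.1), liver (32.8 ± 3.19) and lung (32.8 ± 2.78) had higher means than adipose (27.9 ± 9.36), and all of these overlapped with it. The difference was 0.42 ± 0.34 (adjusted p = 0.490). It was 0.13 without adipose of P348 and 0.72 without adipose of P350, and -0.19 against the 4 other tissues outside the brain. At a −log10 q-value of at least 2 it was -0.88 (adjusted p = 0.194), and at 4 it was -2.98 (adjusted p = 0.00105), while with 50 kb on either side it was 0.95 (adjusted p = 0.0412). At the limit of 4, 3810 of 18322 genes were called lower.

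CIDEC had a promoter peak in 12 of 16 libraries, among them both of adipose, at folds of 2.69 (P348) and 2.81 (P350). Liver stood apart, with 7.21 and 7.01, while the other libraries with a peak ranged up to 3.69. In bases the promoter values of adipose, 15.3 and 14.3 per Mb, lay inside the range of the others, 0 to 20.2 (exact two-sided permutation p = 0.333). The regions of the window that every tissue shared lay outside the gene. Those from -6245 to -4778, at the TSS of JAGN1, and from 15773 to 16273, at those of RPUSD3 and LOC106505669, were listed in all 16 libraries, as was a region from 11724 to 12504. Adipose folds at JAGN1 were 5.50 and 5.60 against a median of 8.49 in the others. At RPUSD3 they were 5.33 and 5.42 against 8.53 to 12.8. In the region from 11724 to 12504 they were 4.34 and 3.94 against a median of 3.76.

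The CIDEC window held 29.3 (P348) and 41.3 (P350) peak bases per Mb in adipose and 6.66 to 56.8 with a median of 30.2 in the others. Spleen was highest at 50.7 ± 8.68 without overlap with the next tissue, and skeletal muscle (36.0 ± 5.11), adipose (35.3 ± 8.54), liver (32.6 ± 6.02) and lung (32.4 ± 0.518) overlapped in turn. The 3 brain tissues were lowest, at 18.6, 16.1 and 9.64. The difference of adipose was 0.40 ± 0.22 (adjusted p = 0.296), and against the 4 other tissues outside the brain it was -0.08 (adjusted p = 0.898). Without the peaks at the TSSs of other genes it was 0.72 (adjusted p = 0.155), and it was 0.62 without adipose of P348 and 0.19 without adipose of P350. At a −log10 q-value of at least 4 it was 0.93 (adjusted p = 0.00470), a limit under which 4664 of 18322 genes were called higher.

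**Figure D3:**
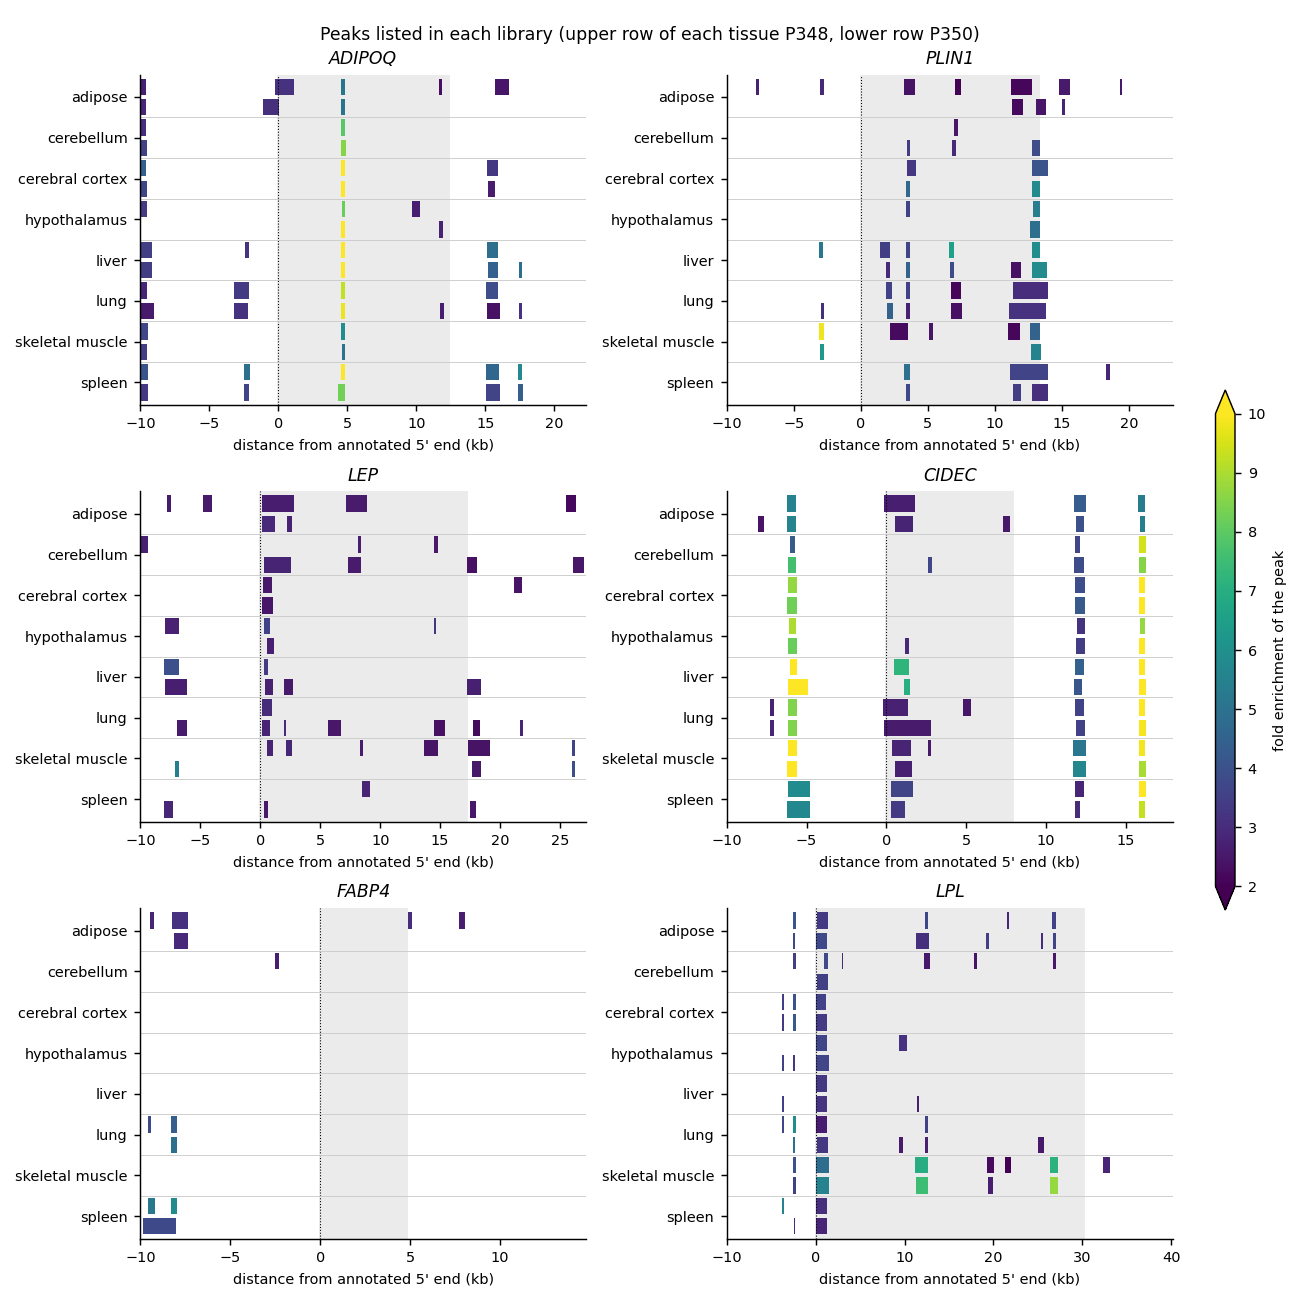
Peaks listed in the 6 windows, by distance from the annotated 5′ end in kb (horizontal axis, gene shaded), with the P348 row above the P350 row in each tissue and colour for fold enrichment. The ADIPOQ start carries peaks in adipose alone, the FABP4 gene carries none in any library, and the 2 LPL gene body sites shared by both pigs in adipose and skeletal muscle are brighter in skeletal muscle.

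FABP4 had no peak within 2 kb of its TSS and none in the rest of its gene body in any of the 16 libraries. Promoters without a peak in any library made up 9.05% of all genes. The peaks counted for FABP4 in adipose lay mainly upstream, in a region from -9852 to -7344 that was listed in both pigs in adipose, lung and spleen and in no other library. Its highest folds were 3.14 and 2.88 in adipose, 4.40 and 4.94 in lung and 5.84 and 3.76 in spleen, so adipose was lowest. Folds were not adjusted for differences between libraries, here or at the other genes. The adipose peaks ran to -7344 and -7349, beyond the lung and spleen peaks, which ended at or before -7937. The 106 bases shared by all 6 libraries (chr4:55088256-55088361, plus strand) are shown because that region is the only one of the window listed in both adipose libraries. Adipose peaks also covered bases nearer to FABP4, which are not shown. A match to the core bound by C/EBP factors, on the reverse strand, is in capitals.
FABP4 upstream, adipose, lung and spleen: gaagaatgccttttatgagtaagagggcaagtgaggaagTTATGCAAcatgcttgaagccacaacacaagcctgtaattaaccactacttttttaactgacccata
C/EBP factors act in both fat cells and myeloid cells. The core, TTGCNNAA on either strand, was found in 4.59% of windows of the same length at the centres of all merged regions.

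Over the FABP4 window the adipose libraries had 13.1 (P348) and 9.70 (P350) peak bases per Mb. The 14 others ranged from 0 to 26.8 with a median of 0, since 9 of them had no peak. Both spleen libraries, at 11.5 and 26.8, overlapped adipose or exceeded it, lung had 4.52 and 2.54, cerebellum of P348 had 1.51, and liver, skeletal muscle, cerebral cortex and hypothalamus had 0. The difference from the mean of the other tissues was 1.25 ± 0.23 on the log2 scale (adjusted p = 0.0151), the only one of the 6 past the threshold. Its size follows the pseudocount, 2.61 with 1 and 0.47 with 20, because most tissues were at 0. Tissues at 0 in both pigs also added no spread to its error. The exact permutation test of the same values gave p = 0.142. The limma call was lost without adipose of P348 (adjusted p = 0.110), without adipose of P350 (0.137), at a −log10 q-value of at least 2 (0.371), with 50 kb on either side (0.403) and against the 4 other tissues outside the brain (0.0556). At a −log10 q-value of at least 4 the difference was -0.40 (adjusted p = 0.433).

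LPL had a promoter peak in all 16 libraries, as did 54.8% of all genes, starting at positions 13 to 125 in all but cerebellum of P348, where it started at 912. The folds in adipose, 3.37 (P348) and 3.74 (P350), lay among those of the others, 2.60 to 5.54, and skeletal muscle had the highest, 4.84 and 5.54. Skeletal muscle also stood apart in the −log10 q-value of these peaks, at 88.1 (P348) and 86.9 (P350) against 5.65 and 4.47 in adipose. In promoter bases adipose (10.5 and 15.2 per Mb) also lay inside the range of the others (2.70 to 19.4, exact two-sided permutation p = 0.833). The 250 bases before its start have a GC content of 42.4% and no CG pair. They hold 2 TATA box matches, 2 CCAAT box matches and a C/EBP core match, where 10.4%, 32.0% and 8.38% of all promoters have at least a single match of each kind.

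Inside the LPL gene 2 sites were listed in both pigs in adipose and in skeletal muscle and in few of the other tissues. The region from 11201 to 12864 was listed in both pigs in adipose, lung and skeletal muscle and in 2 further libraries, cerebellum of P348 and liver of P350, with folds of 3.63 and 3.12 in adipose and of 7.0 and 7.48 in skeletal muscle. The region from 26339 to 27227 was listed in both pigs in adipose and skeletal muscle and once elsewhere, in cerebellum of P348, with folds of 3.51 and 3.61 in adipose and 7.15 and 8.72 in skeletal muscle. At both, skeletal muscle was well above adipose. The median fold of all peaks was also higher in the skeletal muscle lists, 3.31 (P348) and 3.98 (P350), than in those of adipose, 2.73 and 2.93. The middle 300 bases of the stretch that the adipose and skeletal muscle peaks of the first site share (chr14:4117065-4117364, plus strand) are shown as the intronic LPL sequence open in both tissues, with 2 overlapping CCAAT box matches, on opposite strands, in capitals.
LPL intron, adipose and skeletal muscle: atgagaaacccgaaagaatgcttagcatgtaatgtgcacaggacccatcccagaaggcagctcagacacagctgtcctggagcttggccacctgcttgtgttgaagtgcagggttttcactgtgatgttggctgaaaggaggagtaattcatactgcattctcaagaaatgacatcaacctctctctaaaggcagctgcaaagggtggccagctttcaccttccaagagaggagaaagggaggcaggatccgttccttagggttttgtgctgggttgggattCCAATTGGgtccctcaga
The CCAAT box was found in 34.2% of such windows of 300 bases.

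The LPL window held 22.4 (P348) and 45.0 (P350) peak bases per Mb in adipose and 8.33 to 64.5 with a median of 19.4 in the others. Both skeletal muscle libraries, 64.5 and 63.4, were above all 14 other libraries, a pattern that 17.9% of all tested genes had for skeletal muscle. Adipose (33.7 ± 16) came second and overlapped hypothalamus (26.0 ± 8.70). The difference of adipose from the other tissues was 0.43 ± 0.25 (adjusted p = 0.328), and it was 0.86 without adipose of P348 and -0.0033 without adipose of P350. At a −log10 q-value of at least 4 it was 2.58 (adjusted p = 0.0227), and both adipose libraries lay above the other 14 per Mb of the peak bases left in each list. Under that limit 4664 of 18322 genes were called higher in adipose and 3810 lower, and 2621 had both adipose libraries above the others.

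**Figure D4:**
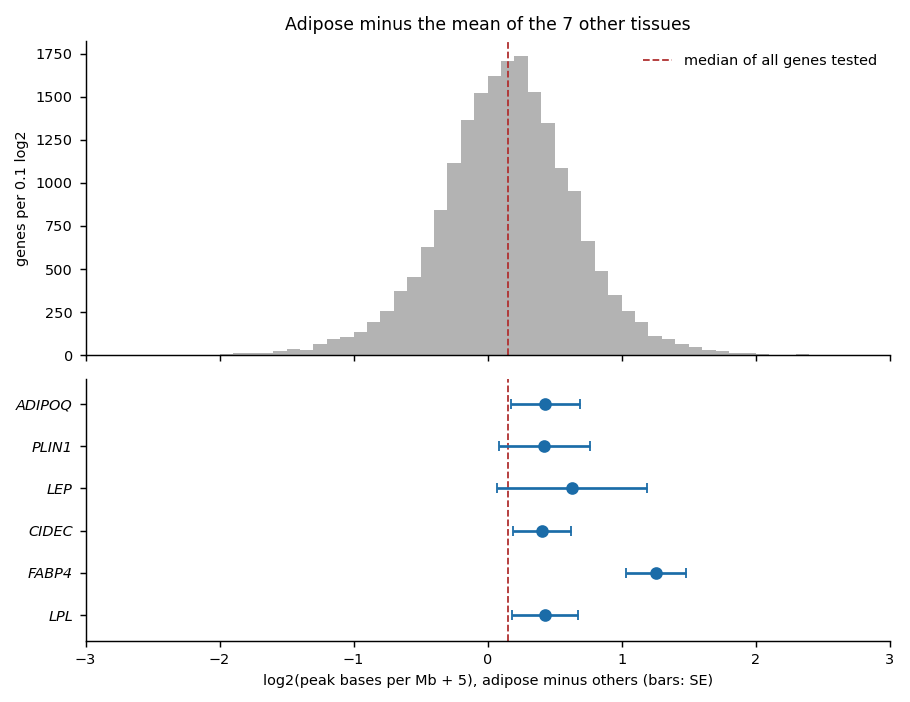
Difference between adipose and the mean of the 7 other tissues in log2(peak bases per Mb + 5) (horizontal axis), as a histogram of 19625 genes above and for the 6 genes below, with bars of 1 SE and a dashed line at the median of all genes, 0.15. FABP4, at 1.25, stands apart from the other 5, which lie between 0.40 and 0.63.

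Of the 19625 tested genes, 98.3% had a lower difference than FABP4, 84.9% a lower one than LEP, and 71.0% to 72.8% a lower one than each of CIDEC, PLIN1, LPL and ADIPOQ. Compared with skeletal muscle alone, the tissue beneath subcutaneous fat, 2 of the 6 genes were called higher in adipose and 0 lower, where 10.1% and 11.4% of all genes were called. FABP4 differed by 1.70 ± 0.30 (adjusted p = 0.00186), with both skeletal muscle libraries at 0. ADIPOQ differed by 1.03 ± 0.34 (adjusted p = 0.0479), with skeletal muscle at 8.83 and 10.3 peak bases per Mb. With the pig as a replicate block the ADIPOQ call was lost (adjusted p = 0.0510), and it was also lost without any single adipose or skeletal muscle library (adjusted p = 0.0963 to 0.187). LPL was -0.90 ± 0.33 (adjusted p = 0.0673) and, without adipose of P350, -1.33 (adjusted p = 0.0296), and PLIN1, LEP and CIDEC differed by 0.19, 0.09 and -0.03.

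Among the 51 merged regions of the 6 windows, 15 had a peak in both adipose libraries, 18 in neither, 5 in all 16 libraries and 17 in a single library. Of the 30 adipose peaks of P348 in these windows 15 overlapped an adipose peak of P350, and of the 21 of P350 16 overlapped one of P348. In cerebral cortex 12 of 13 and 12 of 12 peaks were shared between the pigs, in cerebellum 8 of 16 and 8 of 14. The shares of these patterns over all merged regions, and the overlap of the pigs over whole lists, were not computed. Whether these counts differ from those of the lists as a whole therefore cannot be told. The median fold of all peaks was 2.73 and 2.93 in the adipose lists and 2.72 to 3.98 in the others. Whether fold differences at single regions exceed such differences between lists was not tested.

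The other genes of fat metabolism were examined in the same way. Of 49 further genes of adipokines, droplet proteins, lipolysis, fatty acid uptake, lipid synthesis and adipose regulation, 1 was called higher in adipose and 0 lower, where 2.41% and 1.08% of all genes were called. A difference above 0 was found in 30 of the 49 and in 12324 of 19605 genes, and the median was 0.20 against 0.15, so the list stood near all genes. The gene was RETN, which encodes the hormone resistin, with 14.4 (P348) and 26.1 (P350) peak bases per Mb in adipose and 0 to 22.5, median 5.24, in the others (1.19 ± 0.30, adjusted p = 0.0466). Both adipose libraries lay above the 14 others in 0 of the 49 (2.56% of all genes), and 42 of the 49 had a promoter peak in both adipose libraries (70.7% of all genes). By group, and with the 6 genes included, the median was highest for the 8 adipokines, at 0.55 with all 8 above 0, followed by 0.42 for the 9 droplet proteins and 0.22 for the 8 genes of fatty acid uptake, and it was 0.06 for 8 lipolysis genes, -0.03 for 8 regulators and -0.09 for 14 genes of lipid synthesis.

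Markers of other cell types that adipose can hold were measured in the same way. The summed window value of 6 macrophage genes was 125 (P348) and 163 (P350) in adipose and 105 to 370 in the others, with CSF1R, the receptor of macrophage growth factor, called lower (-1.22 ± 0.30, adjusted p = 0.0436) and 1 of 6 above 0. For 6 lymphocyte genes it was 174 and 201 against 51.6 to 485, spleen being highest, with CD3E, a T cell receptor subunit, called higher (1.37 ± 0.28, adjusted p = 0.0228). Endothelial genes (419 and 427 against 213 to 447) and fibroblast genes (232 and 203 against 180 to 274) were inside the range of the other tissues and none was called. The fibroblast gene LUM and the B cell gene MS4A1 had no peak base in at least 1 adipose library. For 6 genes of skeletal muscle fibres adipose had 115 and 172 against 34.6 to 643, the highest in skeletal muscle, and none was called. The part of these cells in the values of the 6 genes was not tested.

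Across the 16 libraries the window values of PLIN1 and CIDEC ran together most closely (Pearson r = 0.86 on the log2 scale), then those of ADIPOQ and PLIN1 (0.80) and of ADIPOQ and CIDEC (0.73), while LPL had an r of 0.01 with ADIPOQ and LEP of 0.01 with FABP4. The points share pigs, and each is scaled by the length of its own list, so these r values are descriptions. Among all genes outside the window of each, those with the most similar values were IGF2BP1, FAM91A1 and LOC110256370 for ADIPOQ (r from 0.93 to 0.94), ANKDD1A, NIPA2 and RFLNB for PLIN1 (0.92 to 0.93), and SYTL3, BRD2 and HIF1AN for CIDEC (0.94 to 0.96). For LPL they were GLMP, GET4 and CLK1 (all 0.93), for FABP4 DEFB121, TARM1 and TRAFD1 (0.86 to 0.90) and for LEP, with the lowest values, LOC106510200, TLX3 and STK11IP (0.75 to 0.77).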

How the data were processed

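Pig ATAC-seq peak lists from 8 tissues of 2 animals were analysed, and the 15 cattle lists were not used here. According to the methods and the submitters' processing notes, the tools were Trim Galore 0.4.5 for trimming, BWA 0.7.17 for alignment to Sscrofa11.1 and SAMtools 1.10 for filtering, while Picard 2.18.17 is stated for ChIP-seq reads. The authors called broad peaks per library with MACS2 at a q-value of 0.05. The shift of reads to the transposase cut is not given in the sources used here. The deposited lists give each peak a score, a fold enrichment (ratio) over background, a −log10 p-value and a −log10 q-value. Between 1.54% and 16.3% of peaks in a list had a q-value above 0.05. No count is given, so no interval for counting error was computed.

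Genes came from RefSeq Annotation Release 106, and 13 mitochondrial genes were left out. For every protein-coding gene with 10 kb on either side, bases in peaks were summed, divided by all peak bases of the library and tested as log2(peak bases per Mb + 5) with limma 3.58.1 in R 4.3.3 (tissue means, variance trend), for genes above 0 in at least 2 libraries. Adipose was compared with the mean of the 7 other tissues and, separately, with skeletal muscle. Spleen and skeletal muscle were each compared with the mean of their 7 other tissues in the same way. P-values were adjusted by Benjamini-Hochberg over 19625 genes. Single values were tested by exact two-sided permutation of the adipose label, over 120 choices of libraries or 64 choices within pigs. Both take libraries as units, and whole tissues were not permuted. Windows were cut into promoter (2 kb around a TSS), gene body and flanks. Each tissue was sampled once per animal, so limma p-values rest on the spread between 2 littermates, pooled over tissues. The permutation p-values do not measure that spread. Samples with the same number come from the same animal. Deviations from the tissue means in the 28 pairs of tissues correlated within an animal at -0.21 to 0.16 (median 0.0047).

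The 6 genes and the gene lists were chosen with earlier results of these data known. Genes named were the 6, list genes with an adjusted p below 0.05, genes with a TSS in a window and for each of the 6 the 3 genes with the most similar values. LUM and MS4A1 were named after their values were seen. Alternatives were other pseudocounts, flanks and peak limits, lists of equal length, no filter, no scaling, no variance trend, peak numbers in place of bases, peaks at the TSSs of other genes left out, non-brain tissues only, the animal as block and each library left out. The limma step was tested on simulated data. Sequences were read from the Sscrofa11.1 RefSeq assembly. Part of the sequence searched is not reported here.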

Additional observations from a re-analysis of the deposited data

How the results depend on the processing

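Over 30 alternatives to each of the 6 differences between adipose and the other tissues (29 for FABP4, which had too few peak bases with 2 kb flanks to be tested), the direction stayed above 0 in 30 for ADIPOQ, 26 for PLIN1, 29 for LEP, 29 for CIDEC, 28 for FABP4 and 29 for LPL. With a minimum −log10 q-value of 2, PLIN1 was -0.88 and FABP4 0.60 (adjusted p = 0.371). With a minimum of 4, PLIN1 was -2.98 (adjusted p = 0.00105), LEP -0.39, FABP4 -0.40, CIDEC 0.93 (0.00470) and LPL 2.58 (0.0227). With lists cut to equal length PLIN1 was -0.25 and LEP 1.77 (0.0442). With 2 kb flanks ADIPOQ was 1.16 (0.00983), and with 50 kb flanks PLIN1 was 0.95 (0.0412) and FABP4 0.80 (0.403). With peaks at the TSSs of other genes left out CIDEC was 0.72 (0.155). Against the 4 other tissues outside the brain PLIN1 was -0.19, CIDEC -0.081 and FABP4 0.97 (0.0556). Leaving out 1 library at a time, ADIPOQ ranged from 0.31 to 0.55, PLIN1 from 0.13 to 0.72, LEP from 0.015 to 1.25 and CIDEC from 0.19 to 0.62, the ends in each being without 1 of the 2 adipose libraries. FABP4 ranged from 1.11 to 1.40, and both ends, without adipose of P348 and of P350, lost the call, and LPL ranged from -0.0033 to 0.86. A single library left in a tissue was assumed to vary like the other tissues. The cause of these changes was not tested.

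The number of genes called higher in adipose, 473, became 225 with a pseudocount of 1, 818 with 20, 1477 of 19384 and 4664 of 18322 with a minimum −log10 q-value of 2 and 4, and 180 against the tissues outside the brain. The number called lower, 211, became 134 without division by all peak bases, and 937 and 3810 with the 2 minimum q-values. Leaving out 1 library gave 15 to 1234 higher and 4 to 390 lower, the lowest without adipose of P350 and the highest without cerebellum of P350. Without adipose of P348 there were 79 and 60. With the animal as a replicate block, 364 genes were called higher and 150 lower, and FABP4 kept its call (adjusted p = 0.0224). Of the 6 genes, 1 had both adipose libraries above the other 14 with a minimum −log10 q-value of 4 (LPL), 1 with 2 kb flanks (ADIPOQ) and 1 with 50 kb flanks (PLIN1). Over all tested genes the pattern was found in 2621 of 18322, 486 of 18988 and 619 of 20141 under these settings.

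The alternatives for adipose against skeletal muscle were chosen after seeing the data. With the replicate block ADIPOQ was 1.03 (adjusted p = 0.0510), and the block changed no other call of the 6 genes in either comparison. Leaving out 1 library of either tissue gave 0.91 to 1.14 for ADIPOQ, with the call lost each time, -0.38 to 0.77 for PLIN1, -0.52 to 0.71 for LEP, -0.25 to 0.18 for CIDEC and -1.33 to -0.46 for LPL. Promoter peaks in both adipose libraries fell from 4 of the 6 genes to 2 at a minimum −log10 q-value of 2 and to 1 at 4, where 0 of the 6 had them in adipose alone. The share of all genes at these limits was not computed, so this fall cannot be told from a general loss of weak peaks. With no counts in the lists, a site just under the peak limit cannot be told from a closed one, and 2 animals per tissue limit the precision of every mean.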
